A study of Mus musculus with 12 samples.

Results

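Fatty acids are made in the cytosol of hepatocytes from acetyl-CoA, and 10 genes that carry out or drive this process were followed here. They were taken as the rows of the deposited gene table whose symbol was Fasn, Acaca, Acacb, Acly, Acss2, Me1, Mlxipl, Thrsp, Slc25a1 or Pklr. All 10 were found, among 27912 genes, and all 10 passed the filter on low counts that left 17729 genes for testing. Whole livers were compared by bulk RNA sequencing of polyadenylated RNA. The mice were male C57BL/6 wild-type (WT) animals and CCR1 knockout (CCR1-KO) animals, 8 weeks old at the start, and all of them ate a high-fat, high-cholesterol diet with cholate (the CL diet) for 12 weeks. The libraries used were replicates 62, 63 and 64 of WT and replicates 65, 66 and 67 of CCR1-KO, and no chow-fed liver entered a comparison. The other 6 of the 12 samples of the series (WT replicates 76, 77 and 80 and CCR1-LKO replicates 83, 85 and 87) were not analysed here. Each replicate has its own number in the labels, which do not say how the WT animals were related to the CCR1-KO animals, so genotype and any difference of origin cannot be told apart. The p-values set the difference between the groups against the spread of libraries within each group, and do not separate genotype from origin.

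The libraries held between 74699391 and 79154085 gene-assigned reads. Ccr1, the targeted chemokine receptor, had 100, 23 and 123 reads in the WT libraries and 11, 4 and 14 in the CCR1-KO libraries (log2 fold change -2.72 ± 0.76, adjusted p = 0.075). Its groups did not overlap, and the test across all genes missed the threshold of 0.05. Of the 9 hepatocyte markers in the table, 3 had an unadjusted p under 0.05, Cps1 among them. After adjustment Cps1 rose and the others did not pass. Their sum, most of it Alb, was 78834 to 94208 CPM in WT and 77815 to 97567 CPM in CCR1-KO. The hepatocyte factor Hnf4a had 863 ± 292 CPM in CCR1-KO and 453 ± 25.3 CPM in WT, with no overlap (adjusted p = 0.063). CPM is the read count per 1e6 reads after scaling with TMM factors, and FPKM is the authors' deposited value per kilobase of transcript and per 1e6 fragments. Values after ± are SD with n = 3 for levels and standard errors for log2 fold changes, which are CCR1-KO over WT throughout. The test was edgeR's quasi-likelihood test, and p was adjusted by the Benjamini-Hochberg method over all 17729 genes.

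Hepatic fatty acid synthesis begins with glycolysis. Pyruvate kinase makes pyruvate, which enters the mitochondria and leaves them again as citrate. Citrate is split in the cytosol to acetyl-CoA, acetyl-CoA carboxylase turns this into malonyl-CoA, and fatty acid synthase joins malonyl units into palmitate at the expense of NADPH. The pathway is controlled at the level of transcription by SREBP-1c, which responds to insulin and sterols, and by ChREBP, the product of Mlxipl, which responds to sugar metabolites and binds paired E-box-like elements together with its partner Mlx.

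The promoters show which DNA letters the genes of opposite direction carry upstream of their starts. RefSeq (GRCm38.p6) gave 13 start sites for the 10 genes, and the 250 bases before each were searched on both strands for the E-box CACGTG, the CCAAT box, the SREBP site core ACCCCAC and the carbohydrate response element, which ChREBP is known to bind. The liver start of Pklr is shown because it holds the single carbohydrate response element found among the 13 windows, in capitals from base -170 to base -154 before the start at position 89136623. Its second block of capitals is a CCAAT box read on the other strand. Fasn is shown for its 3 CCAAT boxes, of which 2 overlap on opposite strands within the run CCAATTGG. Mlxipl is shown at the upstream of its 2 RefSeq starts, which lie 17001 bases apart. That window holds an E-box at bases -98 to -93 and a CCAAT box on the other strand.
Pklr, chr3:89136373-89136622, plus strand: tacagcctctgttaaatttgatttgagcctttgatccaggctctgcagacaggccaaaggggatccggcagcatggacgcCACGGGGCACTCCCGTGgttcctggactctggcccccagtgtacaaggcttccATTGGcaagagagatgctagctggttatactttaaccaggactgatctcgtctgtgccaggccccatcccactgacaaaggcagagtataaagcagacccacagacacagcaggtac
Fasn, chr11:120824548-120824797, minus strand: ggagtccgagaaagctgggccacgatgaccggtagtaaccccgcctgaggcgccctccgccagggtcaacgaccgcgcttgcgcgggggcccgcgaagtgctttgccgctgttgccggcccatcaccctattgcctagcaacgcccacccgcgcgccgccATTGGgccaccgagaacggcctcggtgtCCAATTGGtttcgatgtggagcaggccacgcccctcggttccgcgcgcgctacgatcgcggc
Mlxipl, chr5:135089640-135089889, plus strand: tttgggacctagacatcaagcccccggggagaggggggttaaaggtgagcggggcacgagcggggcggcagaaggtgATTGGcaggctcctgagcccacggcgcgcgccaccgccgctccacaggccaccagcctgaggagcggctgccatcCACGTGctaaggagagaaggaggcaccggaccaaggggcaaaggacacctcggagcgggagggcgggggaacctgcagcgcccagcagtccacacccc

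The CCAAT box, bound by the factor NF-Y, was found in 8 of the 13 windows and in 33.9% of 32851 windows of the same kind. The E-box was found in 2 (Mlxipl and Slc25a1) and in 6.02% of all windows, and the SREBP site core in 1 (the downstream start of Me1) and in 5.44%. The carbohydrate response element was found in 0.0974% of all windows, in a form of its consensus added after the data had been seen. The form chosen first, CANGTG paired with itself across 5 bases, was found in none of the 13 windows and in 0.0670% of all. Neither form contains the other. These are matches of letters in 250 bases and were not tested against the expression values.

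In CCR1-KO livers 6 of the 10 genes fell, 1 rose and 3 did not pass. Those that fell were Fasn, Acaca, Acly, Acss2, Thrsp and Pklr, and the gene that rose was Mlxipl. Over all tested genes, 3.61% fell and 2.83% rose. The median log2 fold change was -1.12 for the 10 genes and 0.0017 for all tested genes. The groups did not overlap in 9 genes, with CCR1-KO lower in 8 and higher in Mlxipl, and they overlapped in Slc25a1. Among all tested genes, 17.4% had groups that did not overlap with CCR1-KO lower, and 15.2% with CCR1-KO higher. Without Mlxipl, the other 9 genes together took 0.150% ± 0.0157 of all reads in WT and 0.0564% ± 0.0165 in CCR1-KO, while Mlxipl alone took 0.0244% ± 0.0030 and 0.0380% ± 0.0063.

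**Figure D1:**
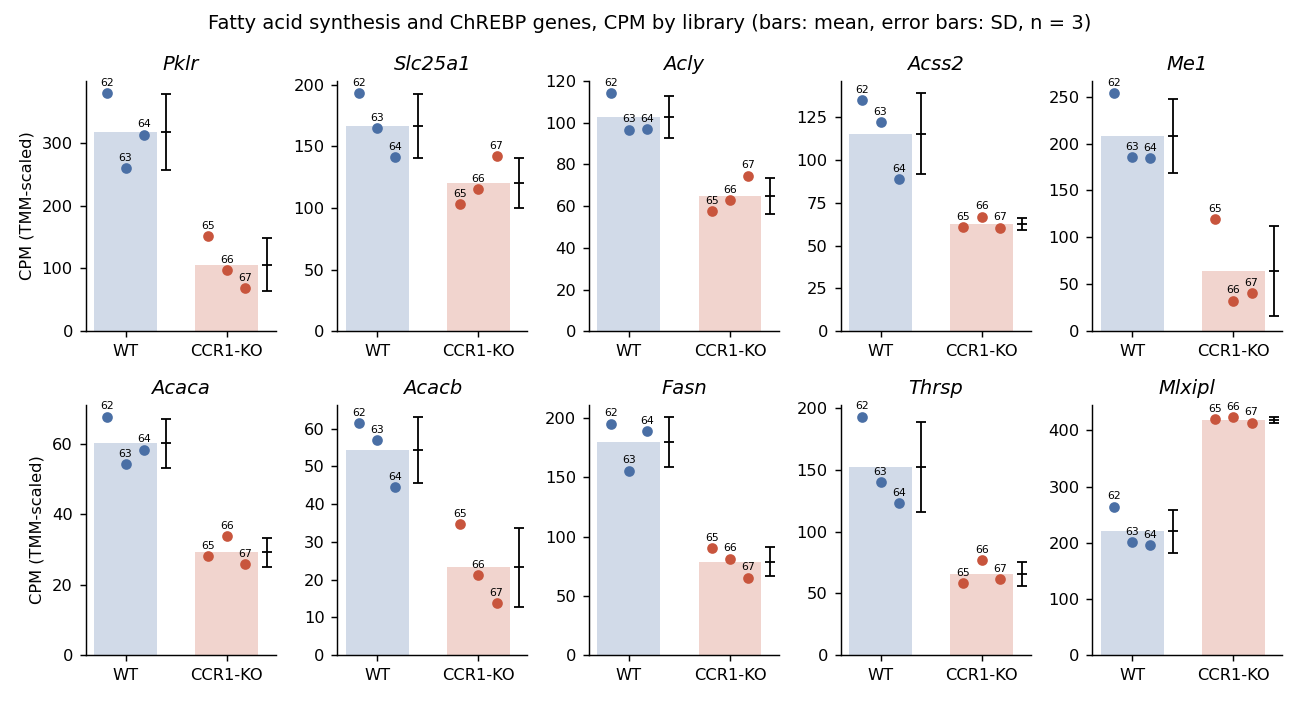
CPM (vertical axes, linear from 0) of the 10 genes in the 3 WT and 3 CCR1-KO libraries; points are libraries marked with their replicate number, bars are group means and the error bars beside them SD. The CCR1-KO points lie below all WT points in 8 panels, above them in the Mlxipl panel, and overlap them in the Slc25a1 panel.

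Per length, the order of levels differed between the groups. In WT livers the deposited FPKM was highest for Pklr (99.4 ± 16.3), followed by Slc25a1 (77.9 ± 8.46), Thrsp (70.2 ± 13.5) and Me1 (54.7 ± 8.04), and each of these overlapped its neighbour in single libraries. Mlxipl came next at 40.2 ± 5.19 FPKM, below every WT library of Me1. Acly (19.7 ± 1.18), Fasn (16.7 ± 2.01), Acss2 (11.5 ± 1.898), Acacb (5.71 ± 0.692) and Acaca (3.57 ± 0.310) followed without overlap between neighbours. In CCR1-KO livers Mlxipl was first at 62.5 ± 9.90 FPKM and Slc25a1 second at 45.1 ± 2.39, with no overlap between them. Pklr (28.1 ± 15.3), Thrsp (24.6 ± 4.01), Me1 (14.8 ± 13.1) and Acly (10.04 ± 0.512) came next and each overlapped its neighbour, Pklr with Slc25a1 as well. Fasn (6.04 ± 1.84) lay below every library of Acly and overlapped Acss2 (5.10 ± 0.776). Acacb (2.08 ± 1.25) and Acaca (1.41 ± 0.286) were again lowest, now overlapping each other.

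Pklr encodes the pyruvate kinase of liver and red blood cells, the last step of glycolysis (ENSMUSG00000041237, chromosome 3, 89136142 to 89146594, plus strand, GRCm38). It had 379.6, 259.7 and 313.1 CPM in WT replicates 62, 63 and 64, and 151.3, 97.7 and 68.9 CPM in CCR1-KO replicates 65, 66 and 67. The groups were far apart, with the highest CCR1-KO library below the lowest WT library. Pklr fell by 1.58 on the log2 scale (SE 0.29, adjusted p = 0.024). The call was lost without WT replicates 62, 63 or 64 (adjusted p = 0.086, 0.072 and 0.093) and without CCR1-KO replicate 66 (0.085). In the GENCODE M21 annotation, whose Pklr coordinates differ from the deposited ones, Pklr shares 711 exon bases with Hcn3 on the other strand. Hcn3 had at most 1905 reads in a library. Whether the authors counted by strand is not stated in the labels. Pkm, the pyruvate kinase of most other tissues, had 13.0 ± 6.59 CPM in CCR1-KO and 23.9 ± 2.91 CPM in WT (adjusted p = 0.14).

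Slc25a1 encodes the carrier that exports citrate from mitochondria (ENSMUSG00000003528, chromosome 16, 17925223 to 17928219, minus strand). It had 193, 165 and 142 CPM in WT and 103, 115 and 142 CPM in CCR1-KO. CCR1-KO replicate 67 reached the level of WT replicate 64, and Slc25a1 did not pass (log2 fold change -0.47 ± 0.17, adjusted p = 0.14). Its deposited FPKM, which are not scaled by TMM factors, did not overlap (42.4 to 47.0 in CCR1-KO and 69.6 to 86.5 in WT). Without scaling factors the same edgeR test called it lower (log2 fold change -0.79, adjusted p = 0.026), a setting in which the median of all genes shifted by -0.30.

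Acly encodes ATP citrate lyase, which splits cytosolic citrate to acetyl-CoA and oxaloacetate (ENSMUSG00000020917, chromosome 11, 100476353 to 100528000, minus strand). It had 114, 96.7 and 96.8 CPM in WT and 57.7, 62.97 and 74.6 CPM in CCR1-KO. No library of one group reached the other. Acly fell by 0.66 on the log2 scale (SE 0.14, adjusted p = 0.037), a call lost without WT replicates 62, 63 or 64 (adjusted p = 0.12, 0.11 and 0.11) and without CCR1-KO replicate 66 (0.11). Acss2 encodes the cytosolic acetyl-CoA synthetase, which makes acetyl-CoA from acetate (ENSMUSG00000027605, chromosome 2, 155517948 to 155576980, plus strand). It had 135, 122 and 89.0 CPM in WT and 61.0, 66.99 and 60.6 CPM in CCR1-KO. The CCR1-KO libraries were close together and the WT libraries were spread. Acss2 fell by 0.88 on the log2 scale (SE 0.17, adjusted p = 0.027), and the call was lost without WT replicates 62 or 63 (adjusted p = 0.084 and 0.11) and without CCR1-KO replicates 66 or 67 (0.071 and 0.077). In GENCODE M21, whose Acss2 coordinates also differ from the deposited ones, it shares 395 exon bases with Gss on the other strand. Gss had up to 7816 reads in a library.

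Me1 encodes the cytosolic malic enzyme, which turns malate into pyruvate and yields NADPH (ENSMUSG00000032418, chromosome 9, 86581371 to 86695953, minus strand). It had 254, 186 and 185 CPM in WT and 119, 32.7 and 40.9 CPM in CCR1-KO. CCR1-KO replicate 65 stood between the other CCR1-KO libraries and the WT libraries. The mean was 30.9% of WT, the smallest share of the 10 genes, but the spread was wide and Me1 did not pass (log2 fold change -1.69 ± 0.46, adjusted p = 0.071). It passed once CCR1-KO replicate 65 was left out (-2.50 ± 0.21 on the log2 scale, adjusted p = 0.0015).

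Acetyl-CoA carboxylase exists as a cytosolic form that feeds fatty acid synthesis, encoded by Acaca, and a form at the mitochondrial surface whose malonyl-CoA restrains fatty acid import, encoded by Acacb. Acaca (ENSMUSG00000020532, chromosome 11, 84129672 to 84401645, plus strand) had 67.7, 54.2 and 58.3 CPM in WT and 28.0, 33.7 and 25.8 CPM in CCR1-KO, so the groups were well separated. Acaca fell by 1.04 on the log2 scale (SE 0.14, adjusted p = 0.012), with an adjusted p of 0.0503 without WT replicate 63 and 0.052 without WT replicate 64. Acacb (ENSMUSG00000042010, chromosome 5, 114146535 to 114250761, plus strand) had 61.6, 57.0 and 44.5 CPM in WT and 34.6, 21.2 and 13.8 CPM in CCR1-KO. Its groups did not overlap either, but CCR1-KO replicate 65 lay 1.32 above replicate 67 on the log2 scale and Acacb did not pass (log2 fold change -1.23 ± 0.31, adjusted p = 0.058). It passed once CCR1-KO replicate 65 was left out (-1.63 on the log2 scale, adjusted p = 0.0074). The log2 ratio of Acaca to Acacb FPKM within a library was -0.68 ± 0.23 in WT and -0.40 ± 0.64 in CCR1-KO. The difference of 0.27 was smaller than the spread between CCR1-KO libraries (exact two-sided permutation p = 0.50, where 0.10 is the smallest that 3 against 3 libraries allow).

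Fasn encodes fatty acid synthase, the multienzyme that builds palmitate (ENSMUSG00000025153, chromosome 11, 120805846 to 120824547, minus strand). It had 196, 156 and 189 CPM in WT and 90.03, 81.5 and 65.3 CPM in CCR1-KO, with no overlap. Fasn fell by 1.19 on the log2 scale (SE 0.16, adjusted p = 0.011), and 1 of the 6 fits without a library lost the call, that without WT replicate 64 (adjusted p = 0.054). Thrsp, also called Spot 14, encodes a small protein that goes up with lipogenesis and thyroid hormone (ENSMUSG00000035686, chromosome 7, 97412938 to 97417730, minus strand). It had 193, 140.1 and 123 CPM in WT and 58.2, 76.6 and 61.7 CPM in CCR1-KO. All 3 CCR1-KO libraries lay near each other, under the lowest WT library. Thrsp fell by 1.22 on the log2 scale (SE 0.20, adjusted p = 0.018). The call was lost without WT replicate 63 (log2 fold change -1.27, adjusted p = 0.067) and without CCR1-KO replicate 67 (-1.18, adjusted p = 0.055). Mid1ip1, the Thrsp-related protein that promotes polymerization of acetyl-CoA carboxylase, fell too, to 11.6 ± 2.22 CPM from 21.03 ± 2.75 CPM in WT (log2 change -0.86 ± 0.17, adjusted p = 0.032).

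Mlxipl, the gene of ChREBP (ENSMUSG00000005373, chromosome 5, 135089890 to 135138382, plus strand), moved the other way. It had 264, 201 and 195 CPM in WT and 419.6, 424 and 414 CPM in CCR1-KO. The CCR1-KO libraries differed among themselves by 0.036 on the log2 scale in CPM, the smallest range of the 10 genes on that scale, and all lay above the highest WT library. In FPKM they ran from 53.4 to 73.1, a log2 range of 0.45, which is wider than that of Acly or Slc25a1 (0.15 each). Mlxipl rose by 0.93 ± 0.15 on the log2 scale (adjusted p = 0.018). The call was lost without WT replicates 63 or 64 (adjusted p = 0.091 and 0.088) and without CCR1-KO replicate 66 (0.055). It was also lost without scaling factors (log2 fold change 0.64, adjusted p = 0.072) and in limma on log2(FPKM + 0.5) (0.63, adjusted p = 0.058), settings in which the all-gene median was -0.30 and -0.23. Counts were given per gene, so transcripts from its 2 starts, the upstream of which is known to give the shorter isoform ChREBP-beta, could not be told apart.

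**Figure D2:**
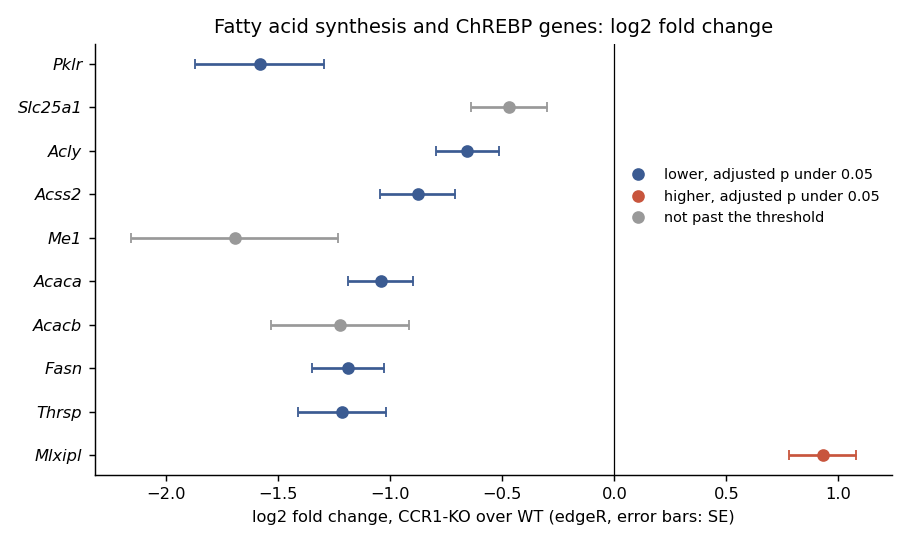
Change from WT to CCR1-KO in log2 units (horizontal axis; points are edgeR estimates, error bars SE) for the 10 genes, coloured by whether adjusted p was under 0.05. All but Mlxipl lie left of 0, and Me1 and Pklr lie farthest left at -1.69 and -1.58.

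The log2 ratio of Mlxipl to Fasn FPKM within a library was 1.42, 1.35 and 1.03 in WT and 3.20, 3.36 and 3.65 in CCR1-KO, a difference of 2.14 between the group means. The pair joins the gene that rose with a gene that fell, so the direction of this difference follows from the choice of genes. It is given as a description and does not show by how much Mlxipl itself moved.

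The 9 genes other than Mlxipl did not vary alike within the CCR1-KO group. Me1, Acacb and Pklr were highest in CCR1-KO replicate 65, at 3.24, 1.98 and 1.82 times the mean of the other CCR1-KO libraries. Fasn was highest there too, at 1.23 times. For Acaca, Acly, Acss2, Thrsp and Slc25a1 the same quotient lay between 0.802 and 0.957, and for Mlxipl it was 1.00. These values depend on the TMM factors: by deposited FPKM the quotient was above 1 for all 10 genes, at 4.16, 2.49, 2.29 and 1.55 for Me1, Acacb, Pklr and Fasn and between 1.03 and 1.28 for the rest. CCR1-KO replicate 65 also had the smallest share of major urinary protein reads among CCR1-KO libraries (3.36%, against 12.2% and 15.8%), where WT libraries had 0.927% to 1.05%, and its part in these differences was not tested. Among WT libraries, replicate 62 was the highest in CPM for all 10 genes, and in FPKM for 9, with Fasn highest in replicate 64.

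Similarity of pattern over the 6 libraries was ranked by the root mean square difference of centred log2 CPM among tested genes of at least 10 CPM. Predicted gene models, pseudogenes and the 10 genes themselves were left out of the ranking. For Fasn, the most similar were Rab3d (0.084), Hlcs (0.12) and Arhgap18 (0.13). Rab3d is a small GTPase of secretory vesicles, and Hlcs attaches biotin to carboxylases. For Mlxipl they were Rev1 (0.094), a DNA repair polymerase, Tsku (0.10), a secreted proteoglycan of the liver, and Aspdh (0.13). Within the 10 genes the closest pairs were Acly with Slc25a1 (0.12) and Fasn with Acaca (0.16).

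The other genes of the pathway were taken from 10 lists with 116 distinct tested genes, of which 7 rose, 15 fell and 94 did not pass. These counts were 9 and 24 without CCR1-KO replicate 65. They fell to 2 and 0 without WT replicate 63, and to 2 and 2 without WT replicates 62 or 64. Without CCR1-KO replicate 66 they were 3 and 3, and without CCR1-KO replicate 67 they were 3 and 6. Over all tested genes, 1010 rose and 1409 fell without CCR1-KO replicate 65, against 36 and 66 without WT replicate 63. Of the list genes that rose or fell with all 6 libraries, Igfbp1 and Pck1 passed in all 6 fits without a library, Tkt and Elovl5 in 5, and 13 in 1. Gpi1 passed in 0.

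Among 18 partners and textbook targets of ChREBP other than the genes above, 2 rose, 1 fell and 15 did not pass (median log2 fold change -0.21). Mlxip, which encodes the ChREBP paralog MondoA, rose to 17.1 ± 1.92 CPM from 9.92 ± 1.36 CPM in WT (log2 change 0.79 ± 0.16, adjusted p = 0.030). Txnip, a thioredoxin-binding protein induced by glucose through both factors, rose to 729 ± 117 CPM from 369 ± 54.4 CPM in WT (log2 change 0.98 ± 0.17, adjusted p = 0.023). Neither passed without scaling factors. The elongase Elovl6 fell to 46.8% of the WT mean of 53.5 ± 10.6 CPM (log2 change -1.10 ± 0.23, adjusted p = 0.034). Mlx, the obligate partner of ChREBP, had 27.9 ± 2.87 against 25.1 ± 0.614 CPM (adjusted p = 0.47).

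Of 16 transcription inputs around SREBP and LXR, 2 fell and 14 did not pass (median -0.023). Srebf1, the gene of SREBP-1, fell to 56.7 ± 10.6 CPM from 98.9 ± 13.8 CPM in WT (log2 change -0.80 ± 0.17, adjusted p = 0.037). Its individual libraries were 57.6, 45.6 and 66.8 CPM in CCR1-KO and 89.98, 91.9 and 115 CPM in WT, with no overlap. Srebf2, the gene of SREBP-2, fell by 0.73 on the log2 scale (SE 0.14, adjusted p = 0.025). Each of these 2 calls held in 1 of the 6 fits without a library. Rxra, the partner of LXR, came next by p and did not pass (0.35 ± 0.15, adjusted p = 0.20), and the LXR-alpha gene Nr1h3 had 88.2 ± 9.01 against 78.2 ± 3.24 CPM (adjusted p = 0.41).

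Among 10 genes of cytosolic NADPH supply, 2 fell and 8 did not pass (median -0.30). Both belong to the pentose phosphate pathway. Transketolase, Tkt, fell to 66.5 ± 8.49 CPM from 139 ± 7.80 CPM in WT (log2 change -1.07 ± 0.13, adjusted p = 0.0096). Pgd, the phosphogluconate dehydrogenase that yields NADPH, fell to 18.9 ± 5.77 CPM from 44.9 ± 2.32 CPM in WT (log2 change -1.25 ± 0.20, adjusted p = 0.018). G6pdx, the first enzyme of that pathway, had 3.89 ± 1.61 against 5.12 ± 0.538 CPM (adjusted p = 0.46).

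On the way from pyruvate to citrate, 1 of 20 genes rose, 3 fell and 16 did not pass (median -0.19). The dicarboxylate carrier Slc25a10 fell by 0.77 on the log2 scale (SE 0.14, adjusted p = 0.024), citrate synthase Cs by 0.47 (SE 0.11, adjusted p = 0.042) and the pyruvate dehydrogenase kinase Pdk1 by 0.86 (SE 0.20, adjusted p = 0.048). The pyruvate dehydrogenase phosphatase Pdp2 rose by 0.85 ± 0.18 (adjusted p = 0.036), a call lost without scaling factors (0.51, adjusted p = 0.10) and in limma on log2(FPKM + 0.5) (0.49, adjusted p = 0.080). In malonyl-CoA control and AMPK, Mid1ip1 was the 1 gene of 12 that passed (median -0.10), ahead of Trib3 (-0.83 ± 0.21, adjusted p = 0.058) and Stk11 (0.33 ± 0.13, adjusted p = 0.16). Of 8 paralogs and mitochondrial counterparts, 0 passed with edgeR (3 at an unadjusted p under 0.05), 2 with DESeq2 and 1 of the 5 that limma tested (median -0.39), and Acss3, a mitochondrial acyl-CoA synthetase, had the smallest p (-1.43 ± 0.41, adjusted p = 0.080).

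The next genes act on the finished fatty acid. Of 12 genes of activation, elongation, desaturation and first acylation, 6 fell, 0 rose and 6 did not pass (median -0.74). The elongase Elovl5 fell by 1.34 (SE 0.17, adjusted p = 0.0098), the desaturase Fads1 by 0.98 (SE 0.17, adjusted p = 0.022) and the elongase Elovl1 by 0.71 (SE 0.13, adjusted p = 0.023) on the log2 scale. Scd1, the main hepatic stearoyl-CoA desaturase, had 1914 ± 1300.0 against 6661 ± 708 CPM and did not pass (-1.80 ± 0.51, adjusted p = 0.078).

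**Figure D3:**
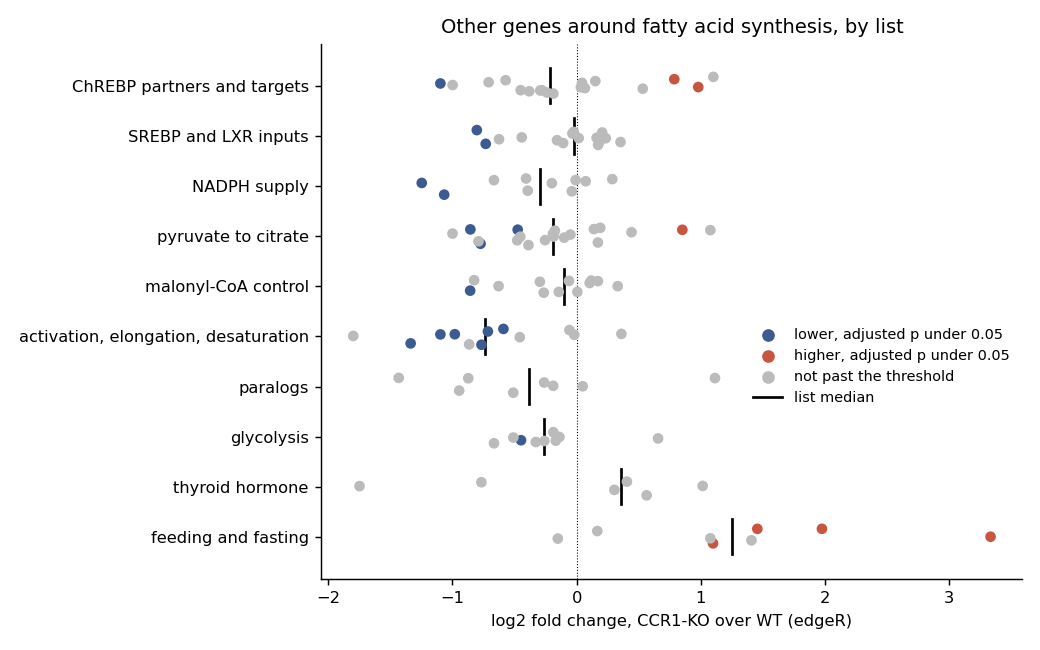
Change from WT to CCR1-KO in log2 units (horizontal axis) for the tested genes of 10 lists; each point is a gene, coloured by whether adjusted p was under 0.05, and the black bar is the list median. The activation, elongation and desaturation list has its median at -0.74 and the feeding and fasting list at 1.25, while the thyroid hormone list, with a median of 0.36, has no coloured point.

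Among 9 glycolysis genes before pyruvate kinase, 1 fell and 8 did not pass (median -0.26). Gpi1, the glucose-6-phosphate isomerase, fell by 0.45 on the log2 scale (SE 0.11, adjusted p = 0.049). The enolase Eno1 came next by p and did not pass (-0.51 ± 0.13, adjusted p = 0.058). Of 6 thyroid hormone receptors and targets, 0 passed with edgeR, where 4 had an unadjusted p under 0.05 and the median was 0.36. DESeq2 called 2 of them higher and 2 lower, and 1010 higher and 1302 lower among 27912 genes. Of the 5 that limma tested on log2(FPKM + 0.5), 0 passed. Their median was -0.049, where that of all genes was -0.23. In edgeR, Klf9 at 1.02 ± 0.26 (adjusted p = 0.061) had the smallest p. Thrb (0.56 ± 0.15, adjusted p = 0.069) and Thra (-0.77 ± 0.25, adjusted p = 0.12) came next.

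Of 8 reporters of insulin, feeding and fasting, 4 rose and 4 did not pass (median log2 fold change 1.25). Those that did not pass included Egr1 (1.41 ± 0.57, adjusted p = 0.18) and Pdk4 (1.08 ± 0.50, adjusted p = 0.24). The others were Insr (0.17 ± 0.11, adjusted p = 0.40) and Ppargc1a, which had a negative change (-0.15 ± 0.21, adjusted p = 0.70). Pck1, the gluconeogenic carboxykinase that fasting induces, rose to 4311 ± 525 CPM from 1095 ± 34.1 CPM in WT (log2 change 1.98 ± 0.16, adjusted p = 0.0024). Igfbp1, which insulin represses, rose to 469.9 ± 119 CPM from 46.5 ± 11.9 CPM in WT (log2 change 3.34 ± 0.25, adjusted p = 0.0022). Angptl4 and the insulin receptor substrate Irs2 rose by 1.10 ± 0.15 (adjusted p = 0.012) and 1.46 ± 0.24 (adjusted p = 0.018). The labels do not state the feeding state at collection, and its part in these values was not tested.

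Markers of other cells in the liver also differed. Of 9 stellate cell and fibroblast markers 6 fell, and their summed level was 198 to 223 CPM in CCR1-KO and 412 to 966 CPM in WT. Bile duct markers summed to 42.2 to 49.1 CPM in CCR1-KO and 118 to 190.0 CPM in WT, with 1 of 6 lower. That gene, Spp1, which other liver cells can also express, had 41.8 ± 4.07 and 141.6 ± 35.2 CPM and made up most of the sum, while the other 5 together had 4.86 and 8.16 CPM on average. Macrophage, endothelial and lymphocyte markers had 0 of 9, 0 of 6 and 0 of 6 past the threshold in edgeR (1, 1 and 0 at an unadjusted p under 0.05), and their sums overlapped between the groups. Fat cells also make fatty acids, and their 7 markers summed to 0.368 to 16.3 CPM in CCR1-KO and 14.3 to 26.6 CPM in WT. Adipoq, Plin1, Lep, Retn and Adig were under 1 CPM in every library and were not tested. Cfd and Cidea therefore made up most of the sum on average, and a difference in fat cells cannot be read from these 2 genes. Cfd had 4.98 ± 8.53 CPM in CCR1-KO and 16.4 ± 6.53 CPM in WT (adjusted p = 0.53). Cidea had 0.580 ± 0.700 and 5.27 ± 4.21 CPM with no overlap (adjusted p = 0.091, unadjusted p = 0.011 in edgeR's test across all genes). In bulk tissue fewer cells of a type and less RNA per cell cannot be told apart, and the part of cell makeup in the results above was not tested.

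**Figure D4:**
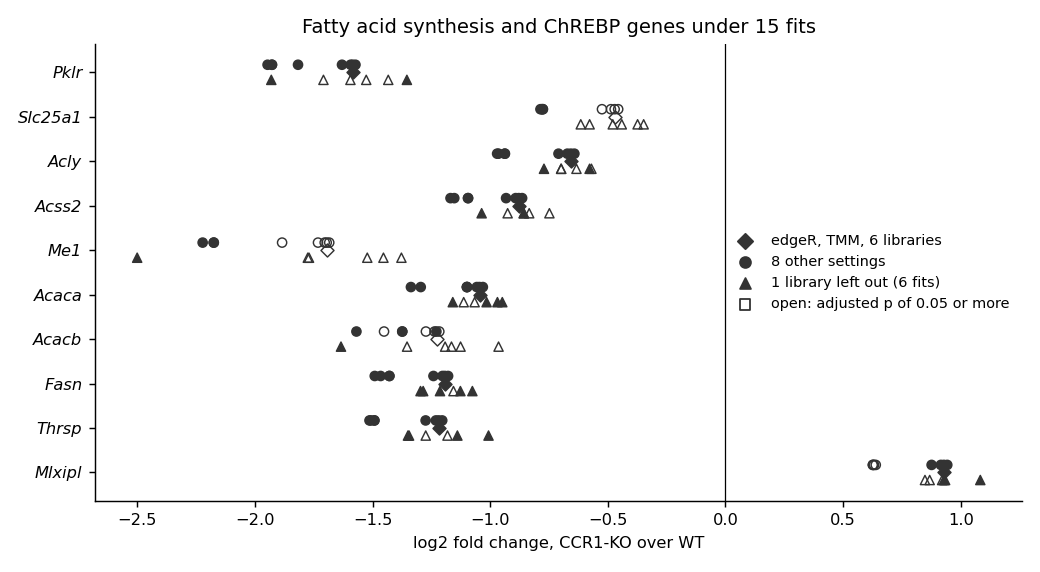
log2 fold change of CCR1-KO over WT (horizontal axis) for each of the 10 genes in 15 fits: diamonds are edgeR with TMM on 6 libraries, circles 8 other settings, triangles the 6 fits without a library, and open symbols have an adjusted p of 0.05 or more. Every symbol of Mlxipl lies right of 0 and every symbol of the other 9 genes left of it, while many triangles are open.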

How the data were processed

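Polyadenylated liver RNA was made into paired-end libraries by a dUTP method, per the labels' protocols. The submitters' processing notes name, without roles, edgeR, DESeq2, StringTie 2.1.6, HISAT2 2.2.1 and cutadapt 1.9, and list the human build GRCh38. The identifiers are of mouse: 27839 are in GENCODE M21 (GRCm38), 25059 of them with the same start, end and strand, so coordinates are given as GRCm38. The deposited table holds whole-number read counts per gene, not normalized, and FPKM values computed by the authors, per the file headers. How reads matching several genes were counted is not stated.

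Counts were tested with edgeR 4.0.16 in R 4.3.3 (glmQLFit, glmQLFTest) after filterByExpr (minimum count 10, minimum total 15) and TMM scaling (factors 0.779 to 1.17), with a threshold of 0.05 on adjusted p over all 17729 genes. Standard errors of log2 fold changes were derived from the F statistic (size of the change divided by the root of F). Alternatives were DESeq2 1.42.0, limma 3.58.1 on log2(FPKM + 0.5) or log2(FPKM + 0.1) where 3 libraries reached an FPKM of 0.5, that filter or the count filter dropped, other scaling, and each library left out. Replicate libraries differed by more than sampling noise (chi-square per degree of freedom at least 62.8). The 10 genes, the lists and the tests were chosen with earlier results of these data known. Named besides the 10 genes were up to 3 genes of smallest p per list, the 3 nearest patterns of Fasn and Mlxipl, and, chosen after their values were seen, Mlx, Nr1h3, G6pdx, Pdk1, Scd1, Irs2, Egr1, Pdk4, Insr, Ppargc1a, Cps1, Hnf4a, Spp1, Cfd and Cidea. Of the 10 hepatocyte markers listed, 9 were in the table. Of the context lists, 1 gene is not reported here and was left out of their counts.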

Additional observations from a re-analysis of the deposited data

How the results depend on the processing

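The 10 genes kept their direction in all 14 alternative fits. The number past the threshold, 7 with 1141 genes over the whole table, was 8 with 2312 genes in DESeq2, 7 with 735 without the filter on low counts, and 3 with 239 in limma on FPKM without a filter. With a library left out it ran from 1 (without WT replicate 63) to 9 (without CCR1-KO replicate 65), while the whole table ran from 102 to 2419 genes. The difference in the log2 ratio of Acaca to Acacb ran from 0.028 to 0.63 and that of Mlxipl to Fasn from 2.02 to 2.24 in the same fits. Of 1141 called genes 501 were higher and 640 lower, against 219 and 857 without scaling factors and 223 and 1088 in limma on log2(FPKM + 0.5), where Slc25a1, Acacb and Me1 were also called and Mlxipl was not. For 34 genes of the other lists (the 3 of smallest p in each and all that passed), 331 of the values in the 14 alternatives kept their call, 121 lost it and 24 gained it, with 0 reversed. The causes were not tested. The 3 libraries per group limit what could be called. No paired analysis was possible because the groups compared share no replicate number.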
